A study of Mus musculus with 6 samples.

Results

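Bone morphogenetic protein (BMP) signalling is held back at several points on its way into the cell, and 10 genes of that brake and of its readout were followed in cartilage of the anterior nasal septum, which divides the nose at the midline. They were chosen by name for their roles, with earlier results of these data known. The antagonist genes were Nog, Chrdl1, Grem1, Fst and Bambi. The inhibitory SMAD genes were Smad6 and Smad7, and the inhibitor of DNA binding (ID) genes were Id1, Id2 and Id3. All 10 were found by Ensembl identifier among the 38924 genes listed in the count files, and all 10 were among the 13333 genes that passed the expression filter and were tested. RNA-seq was performed on cartilage captured by laser from embryos at embryonic day 14.5, on a C57BL/6 background. The Apert group held 3 embryos with 1 mutant Fgfr2 allele, coding for the receptor substitution S252W of human Apert syndrome, and the transgene EIIA-Cre, whose Cre is driven by a viral promoter active in the early embryo. The WT group held 3 embryos, for which the labels list no Cre, so effects of the receptor allele and of Cre cannot be told apart. Each library came from 1 mouse, and its RNA was amplified before sequencing.

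BMPs are secreted ligands that bring together type I and type II serine/threonine kinase receptors. The receptors phosphorylate SMAD1, SMAD5 and SMAD9, which enter the nucleus with SMAD4 and switch on target genes, among them the ID genes and the inhibitory SMAD genes themselves. In cartilage, BMP signals promote condensation and chondrocyte differentiation, and loss of Noggin in mice leads to enlarged cartilage elements. The antagonists act outside the cell or at its surface, the inhibitory SMADs block the receptors and the SMAD complex inside it, and ID proteins bind helix-loop-helix factors and keep them off DNA.

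Total counts were 6760510 to 10527915 in the Apert libraries and 8631181 to 10834744 in the WT libraries. Counts are given below as CPM, which scales them to a common library total, here after TMM scaling (a trimmed mean of M values). On that scale 1 count was worth 0.087 to 0.162 CPM. Chondrocyte markers were abundant in both genotypes, with 8 markers summing to 26417 to 28366 CPM in Apert and 25398 to 34930 CPM in WT cartilage. The 8 perichondrium and fibrous markers summed to 2979 to 3229 CPM in Apert and 2165 to 2454 CPM in WT cartilage, and the 4 glial markers to 103 to 141 CPM in Apert and 149 to 200.2 CPM in WT cartilage, so neither pair of ranges overlapped. Of the fibrous markers Col3a1 and Ogn were called higher in Apert (log2 fold changes 0.69 and 0.93, edgeR adjusted p = 0.0322 and 0.0363). The other fibrous markers did not pass, and Dcn ran lower in Apert (log2 fold change -0.22). Foxd3, a defining glial marker, had 0 counts in all libraries. Endothelial markers, 8 genes, summed to at most 4.37 CPM in any library, neuronal markers (4 genes) to at most 1.93 CPM and epithelial markers (5 genes) to at most 2.59 CPM. The mitochondrial genome took 34.3% to 40.4% of counts in Apert and 28.8% to 30.2% in WT libraries. In tissue RNA, fewer cells of a type and less RNA per cell cannot be told apart.

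RefSeq promoter sequences (GRCm38.p6) were matched for 4 of the 10 genes, Grem1, Smad6, Id2 and Id3. Because ID genes are a standard readout of BMP SMADs, the 250 bases before each start were searched on both strands for GGCGCC, a GC-rich element of the kind that BMP SMADs bind, and for CAGAC, the core of the SMAD binding element. These motifs do not overlap each other in the matches found. GGCGCC occurred once in the Id2 window, 231 bases before the start, and once in the Grem1 window, 78 bases before it. The same letters occurred in 9.54% of 27025 mouse promoter windows of that length. CAGAC occurred once in the Grem1 window and at 2 places in the Id3 window, and in 42.1% of all windows, and neither motif was present in the Smad6 window. The matches describe letters and do not show binding. The stretches around GGCGCC, with the motif in capitals, lie on the minus strand at chr12:25096306-25096335 for Id2 and chr2:113758709-113758738 for Grem1:
Id2: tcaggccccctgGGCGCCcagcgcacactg
Grem1: cgcggcggcgacGGCGCCtgaccaatggag

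None of the 10 genes passed the test between genotypes (edgeR quasi-likelihood F test, Benjamini-Hochberg adjusted over 13333 genes). Of all genes tested 0.45% were called. At an unadjusted p below 0.05 only Chrdl1 differed, 1 of 10 genes, where 11.4% of all genes did (6.35% higher and 5.01% lower in Apert). limma-voom called none of the 10 either, nor did DESeq2, which gave an adjusted p for 4 of them. Log2 fold changes, Apert over WT, were positive for 5 genes and negative for 5, with a median of 0.054 beside 0.011 for all genes tested. Chrdl1 was also the one gene of the 10 whose groups did not overlap, beside 16.6% of all genes in either direction and 7.7% with all Apert libraries below all WT libraries, as here.

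**Figure D1:**
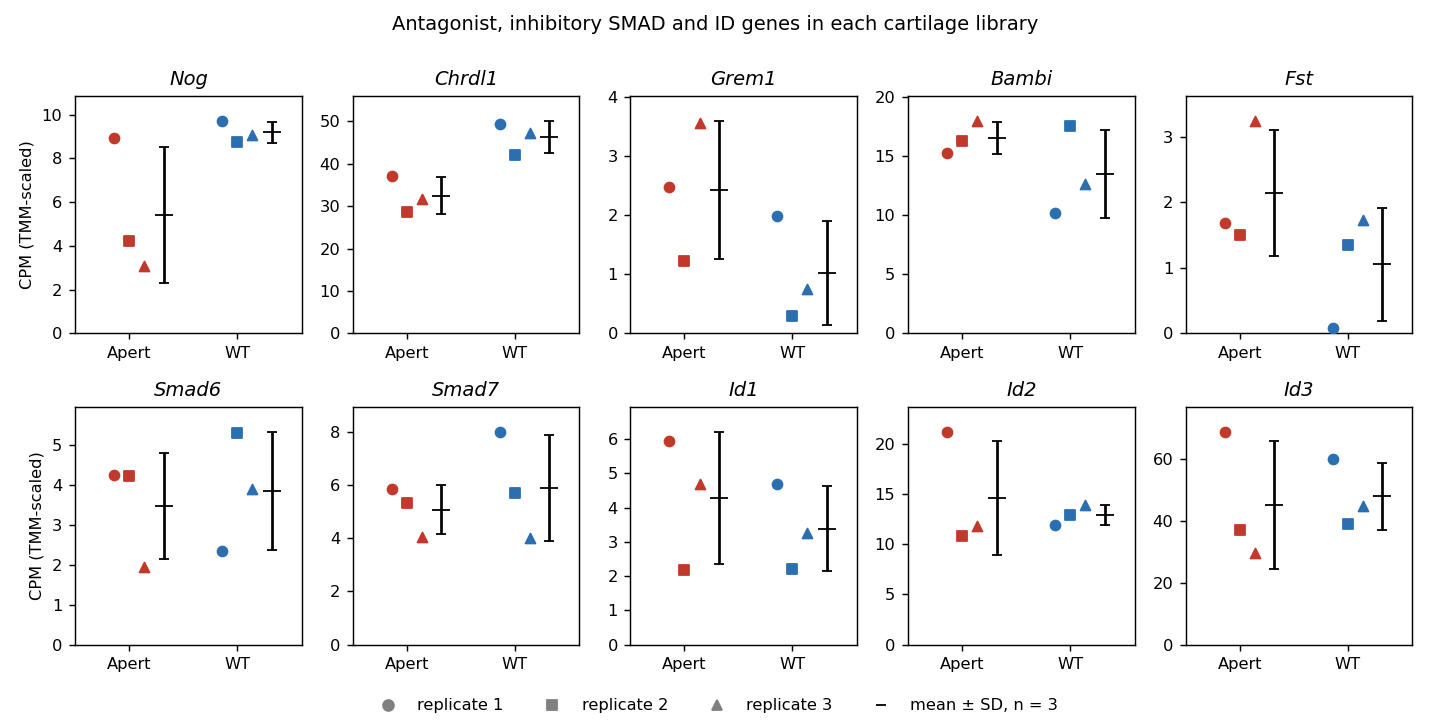
TMM-scaled CPM of each gene in the 3 Apert and 3 WT libraries (vertical axes from 0, a scale of its own for each gene; symbols mark replicate numbers, bars the mean ± SD, n = 3). The Chrdl1 points of Apert cartilage, 28.6 to 37.1 CPM, lie below those of WT cartilage, 42.1 to 49.5 CPM, and in the other 9 genes the groups overlap.

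Chrdl1 (ENSMUSG00000031283) encodes chordin-like 1, a secreted protein that binds BMPs and keeps them from their receptors, and lies on chromosome X at 143285674 to 143394262 (mm10, minus strand). It was the antagonist with the highest level among the 5. Chrdl1 was at 37.1, 28.6 and 31.8 CPM in Apert replicates 1 to 3, and at 49.5, 42.1 and 47.3 CPM in WT replicates 1 to 3. Every Apert library was below every WT library. The means were 32.5 ± 4.30 CPM in Apert and 46.3 ± 3.78 CPM in WT cartilage (SD, n = 3 each). This gave a log2 fold change of -0.51 (standard error 0.18, 95% interval -0.89 to -0.13), but the adjusted p was 0.282 (edgeR; unadjusted p = 0.0121), so the difference did not pass over all genes. The log2 fold change was -0.70 after correction for GC content and -0.67 with library totals alone, and no alternative gave a call, with adjusted p between 0.103 and 0.603. The chondrocyte marker gene Sox9, a transcription factor of cartilage, also separated the groups, at 618, 480.3 and 338 CPM in Apert replicates 1 to 3 and 845, 797 and 637 CPM in WT replicates 1 to 3 (log2 fold change -0.67, edgeR adjusted p = 0.125). Acan, which encodes the proteoglycan aggrecan, was at -0.48 on the log2 scale with overlapping groups (edgeR adjusted p = 0.322), and neither passed. Other chondrocyte markers ran in both directions, with log2 fold changes of 0.17 for Hapln1 and 0.027 for Col9a1. Those of Col2a1, Matn1 and Comp were -0.17, -0.27 and -0.38. In all of these the groups overlapped and none passed (edgeR adjusted p between 0.507 and 0.964). The chondrocyte sum overlapped between genotypes and was made up mostly of Col2a1 and Hapln1. The fibrous and glial marker sums and the mitochondrial share separated the same libraries, and the part of these and of Sox9 in the Chrdl1 values was not tested.

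Nog (ENSMUSG00000048616), a single-exon gene on chromosome 11 (89300638 to 89302559, minus strand), encodes Noggin, which binds BMPs and covers the surfaces that meet the receptors. Nog was at 8.92, 4.22 and 3.08 CPM in Apert replicates 1 to 3 and at 9.71, 8.77 and 9.09 CPM in WT replicates 1 to 3. The WT libraries lay close together, while Apert replicates 2 and 3 were low and Apert replicate 1 stood within the WT range. The coefficient of variation was 57.3% among Apert libraries and 5.17% among WT libraries, where counting alone would give about 14.6% and 10.2%. The fitted log2 fold change was -0.74 (standard error 0.37), with a 95% interval of -1.52 to 0.047 (edgeR adjusted p = 0.483). Without Apert replicate 1 it was -1.35 (adjusted p = 0.0722) and without Apert replicate 3 it was -0.47 (adjusted p = 0.741), and neither passed. After correction for GC content it was -0.50 (adjusted p = 0.819).

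The remaining antagonists had higher means in Apert than in WT cartilage, and none passed. Bambi (ENSMUSG00000024232, chromosome 18, 3507957 to 3516404, plus strand) encodes a membrane protein that resembles a type I receptor but lacks the kinase domain, and so acts as a decoy in the receptor complex. Bambi was at 15.3, 16.3 and 18.0 CPM in Apert replicates 1 to 3 and at 10.2, 17.5 and 12.7 CPM in WT replicates 1 to 3. The Apert libraries were within the upper part of the WT range or just above it. Its log2 fold change was 0.29 with a 95% interval of -0.25 to 0.83 (edgeR adjusted p = 0.716). It was 0.13 without WT replicate 1, 0.53 without WT replicate 2, 0.15 after correction for GC content and 0.14 with library totals alone, and none of these passed.

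Grem1 (ENSMUSG00000074934, chromosome 2, 113746164 to 113758646, minus strand) encodes Gremlin 1, a secreted BMP binder known from the signalling loop of the limb bud. It had 25, 9 and 22 counts in Apert replicates 1 to 3 and 23, 3 and 7 counts in WT replicates 1 to 3. These are 2.48, 1.22 and 3.56 CPM in Apert and 1.99, 0.289 and 0.758 CPM in WT cartilage. The log2 fold change was 1.22 with a 95% interval of -0.28 to 2.73, which spans 0 (edgeR adjusted p = 0.543), and it ran between 0.79 and 2.19 when single libraries were left out. Fst (ENSMUSG00000021765, chromosome 13, 114452262 to 114458730, minus strand) encodes follistatin, which binds activins most tightly and also BMPs. It had 17, 11 and 20 counts in Apert replicates 1 to 3 and 1, 14 and 16 counts in WT replicates 1 to 3. WT replicate 1 stood apart with its single count, 0.0867 CPM with an exact 95% Poisson interval of 0.00219 to 0.483 CPM, which covers counting error only. For Fst the log2 fold change was 1.02 with a 95% interval of -0.60 to 2.64 (edgeR adjusted p = 0.666) and 0.46 without WT replicate 1. The coefficient of variation between libraries was 48.3% in Apert and 86.9% in WT cartilage for Grem1, where counting alone would give about 23.1% and 30.2%. For Fst it was 44.7% in Apert and 81.5% in WT cartilage, where counting alone would give about 25% and 31.1%. For both genes the groups overlapped, and neither difference passed.

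**Figure D2:**
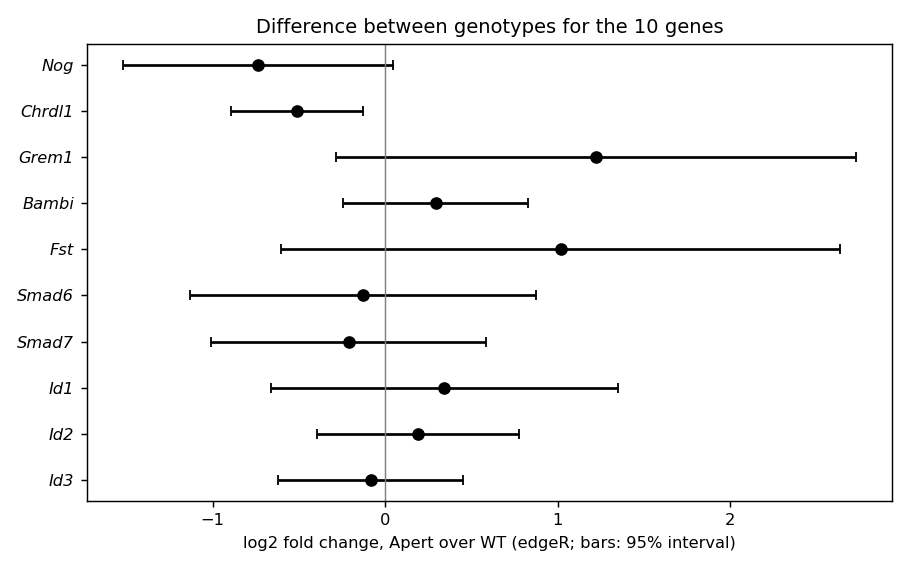
Log2 fold change of each gene, Apert over WT, with its 95% interval from the edgeR fit of 3 Apert and 3 WT libraries (0 is no difference). The interval of Chrdl1, -0.89 to -0.13, lies below 0 before adjustment over all genes, the other 9 span 0, and those of the low genes Grem1 and Fst are widest.

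The inhibitory SMAD genes showed no difference beyond their spread. Smad6 (ENSMUSG00000036867, chromosome 9, 63953076 to 64022059, minus strand) encodes the inhibitor that acts mainly on the BMP branch. Smad6 was at 4.26, 4.22 and 1.94 CPM in Apert replicates 1 to 3 and at 2.34, 5.30 and 3.90 CPM in WT replicates 1 to 3. Its log2 fold change was -0.13 with a 95% interval of -1.13 to 0.88 (edgeR adjusted p = 0.952), and its sign turned after correction for GC content. Smad7 (ENSMUSG00000025880, chromosome 18, 75367529 to 75395935, plus strand) encodes the inhibitor shared by the BMP and TGF-beta branches. Smad7 was at 5.85, 5.31 and 4.05 CPM in Apert replicates 1 to 3 and at 7.97, 5.69 and 4.005 CPM in WT replicates 1 to 3. Its log2 fold change was -0.21 with a 95% interval of -1.01 to 0.59 (edgeR adjusted p = 0.880), and its sign too turned after correction for GC content. For both genes the intervals leave room for a difference of about 1 on the log2 scale in the lower direction.

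Among the ID genes, the transcripts most often read as the output of BMP SMADs, none of the 3 differed between genotypes beyond the spread of the libraries. Id3 (ENSMUSG00000007872, chromosome 4, 136143497 to 136145755, plus strand) was at 68.8, 37.0 and 29.7 CPM in Apert replicates 1 to 3 and at 60.2, 39.1 and 44.9 CPM in WT replicates 1 to 3. Replicate 1 was the highest library in both genotypes, and the other 2 Apert libraries were below all WT libraries. The means were 45.2 ± 20.8 CPM in Apert and 48.1 ± 10.9 CPM in WT cartilage (SD, n = 3 each). That is a log2 fold change of -0.082 with a 95% interval of -0.62 to 0.45 (edgeR adjusted p = 0.938). It was -0.56 without Apert replicate 1 (adjusted p = 0.212) and 0.13 after correction for GC content.

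Id2 (ENSMUSG00000020644, chromosome 12, 25093801 to 25096092, minus strand) was at 21.2, 10.9 and 11.8 CPM in Apert replicates 1 to 3 and at 11.96, 12.9 and 14.0 CPM in WT replicates 1 to 3. Apert replicate 1 stood above all others, Apert replicates 2 and 3 stood below all WT libraries, and the log2 fold change was 0.19 with a 95% interval of -0.40 to 0.78 (edgeR adjusted p = 0.849). Without Apert replicate 1 it was -0.22. Id1 (ENSMUSG00000042745, chromosome 2, 152736251 to 152737410, plus strand) was at 5.95, 2.18 and 4.70 CPM in Apert replicates 1 to 3 and at 4.68, 2.22 and 3.25 CPM in WT replicates 1 to 3. Replicate 2 was the lowest library in both genotypes. Its log2 fold change was 0.34 with a 95% interval of -0.66 to 1.35 (edgeR adjusted p = 0.839), and it was -0.021 without Apert replicate 1. The 3 ID genes therefore had Apert replicate 1 as their highest Apert library.

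Apert replicate 1 was the highest Apert library for 7 of the 10 genes, the exceptions being Grem1, Bambi and Fst, and among all genes tested it was the highest for 34.8%. In WT cartilage replicate 1 was the highest for 6 of the 10 genes, beside 32.9% of all genes. Spread within the Apert group was above the median gene for 7 of the 10 genes, the exceptions being Chrdl1, Bambi and Smad7. The standard deviation of log2 CPM among Apert libraries was 0.76 for Nog, 0.71 for Id1 and 0.63 for Id3, beside a median of 0.32 over all genes tested. In WT cartilage the spread was likewise above the median gene for 7 of the 10 genes, the exceptions being Nog, Chrdl1 and Id2. Among WT libraries the standard deviation was 1.46 for Fst, 1.06 for Grem1 and 0.56 for Smad6, and 0.072 for Nog, 0.11 for Id2 and 0.12 for Chrdl1, beside a median of 0.25.

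Levels can be compared between genes only per length, and CPM per kb of exon is used for that here. Id3 had the highest mean level over the 6 libraries at 26.0 CPM per kb, above 91.8% of the genes tested, followed by Id2 at 10.9 and Chrdl1 at 5.83 CPM per kb. Id3 exceeded Id2, and Id2 exceeded Chrdl1, in 6 of 6 libraries. Nog at 3.80, Id1 at 3.30 and Bambi at 2.98 CPM per kb came next and could not be ordered over all libraries, since Nog exceeded Id1, and Id1 exceeded Bambi, in 4 of 6 libraries. In every WT library Nog was above both Id1 and Bambi, while the order differed between Apert libraries. Bambi exceeded Smad7 in 6 of 6 libraries, without overlap of their ranges. Smad7 at 1.21 and Smad6 at 1.14 CPM per kb did not differ beyond their spread. Fst at 0.684 and Grem1 at 0.414 CPM per kb were the lowest, and only 3.84% of the genes tested had a lower mean than Grem1.

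**Figure D3:**
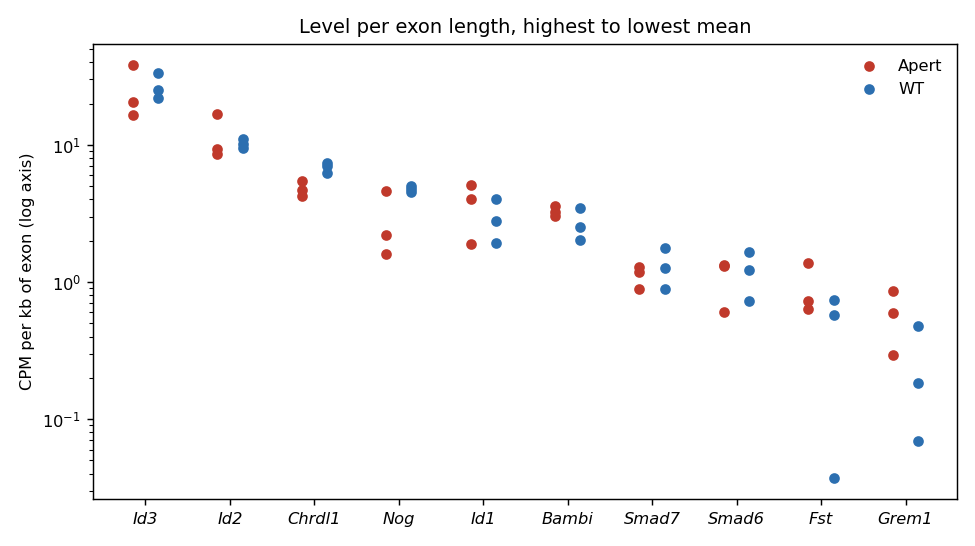
CPM per kb of exon in each Apert and WT library (log axis), genes ordered by their mean over all 6 libraries. Id3 leads at 16.6 to 38.4 CPM per kb, Nog, Id1 and Bambi overlap, and Fst and Grem1 are lowest.

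Some other extracellular modulators of BMPs were present at higher levels than the 5 antagonists. Fstl1, a follistatin-like glycoprotein, was at 138 ± 33.2 CPM per kb in Apert and 151 ± 9.24 CPM per kb in WT cartilage. Twsg1, which forms complexes with chordin and BMPs, was at 70.5 ± 9.03 CPM per kb in Apert and 69.4 ± 7.75 CPM per kb in WT cartilage. Bmper, a crossveinless-type BMP binder, was at 23.7 ± 5.33 CPM per kb in Apert and 34.1 ± 11.8 CPM per kb in WT cartilage (SD, n = 3 each). Chrd, the founding chordin gene, was at 0.308 ± 0.240 CPM per kb in Apert and 0.230 ± 0.186 CPM per kb in WT cartilage, far below Chrdl1. Sost, which encodes a secreted antagonist made by osteocytes, had no count in any of the 6 libraries, a limit of 3 counts per library.

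The rest of the pathway was read from 7 lists of 75 genes, of which 60 were tested. None was called by edgeR, by limma-voom or by DESeq2, which gave an adjusted p for 42 of them, and the median log2 fold change was -0.0037. At an unadjusted p below 0.05, 4 were higher and 6 lower in Apert cartilage, where 6.35% and 5.01% of all genes were, and 10 of 60 had groups that did not overlap, beside 16.6% of all genes. The smallest p belonged to the co-receptor genes Rgmb and Rgma, whose proteins are membrane-anchored and present BMPs to their receptors. Rgmb was at 4.07, 4.22 and 3.73 CPM in Apert replicates 1 to 3 and at 7.02, 11.5 and 9.31 CPM in WT replicates 1 to 3, with a log2 fold change of -1.20 (standard error 0.34, edgeR adjusted p = 0.149). Rgma was at 23.5, 19.7 and 16.7 CPM in Apert replicates 1 to 3 and at 36.3, 39.6 and 25.1 CPM in WT replicates 1 to 3, with a log2 fold change of -0.75 (standard error 0.22, edgeR adjusted p = 0.169). Both lay lower in every Apert library than in every WT library, as Chrdl1 did, but did not pass, and the part of the marker sums was not tested here either. Of the pathway genes named here and below, Rgma, Bmp4, Bmp5, Chrd, Kcp, Ctdsp2 and Tob2 share exon bases with another gene, so their counts are uncertain.

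Among 10 ligand genes tested, Bmp5 and Bmp4 had log2 fold changes of 0.58 and 0.50 (edgeR adjusted p = 0.336 and 0.417), and Bmp6 of -0.65 (adjusted p = 0.565). Bmpr2, the type II receptor gene, was at 285 ± 22.4 CPM in Apert and 221 ± 31.0 CPM in WT cartilage (edgeR adjusted p = 0.335). The 6 SMAD transducer genes had a median log2 fold change of -0.038, with Smad3 at -0.33, Smad2 at 0.15 and Smad9 at -0.15. Smad2 and Smad9 turned sign in 1 and 2 of 15 alternatives, and Smad9 was at -1.03 without Apert replicate 1 (edgeR adjusted p = 0.0704). Among 11 other extracellular modulators Bmper was at -0.52, Bmp1, the protease that cleaves chordin, at -0.57 and Kcp at 0.53 on the log2 scale.

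Of 13 intracellular regulators, Ctdsp2, a phosphatase gene, was at 251 ± 56.6 CPM in Apert and 352 ± 55.7 CPM in WT cartilage (SD, n = 3 each), a log2 fold change of -0.49 (edgeR adjusted p = 0.253). It passed in a single alternative, without Apert replicate 1 (adjusted p = 0.0334). Tob2 and Zfp423 had log2 fold changes of -0.57 and -0.31. Among 5 other BMP response genes tested, the homeobox gene Msx1 was at 5.74 ± 0.891 CPM in Apert and 3.40 ± 1.06 CPM in WT cartilage (SD, n = 3 each; edgeR adjusted p = 0.504). The bHLH genes Hey1 and Atoh8 had log2 fold changes of -0.69 and -0.25, that of Atoh8 turning sign in 2 of 15 alternatives and standing at -1.26 without Apert replicate 1 (edgeR adjusted p = 0.122). In the list of bHLH genes set beside the ID genes, the E protein genes Tcf12 and Tcf3 were at 0.17 and -0.083 on the log2 scale. Scx, a bHLH gene that is not an E protein gene, was at -0.31, with a low mean of 1.97 CPM over the 6 libraries. Tcf3 and Scx turned sign in some alternatives.

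**Figure D4:**
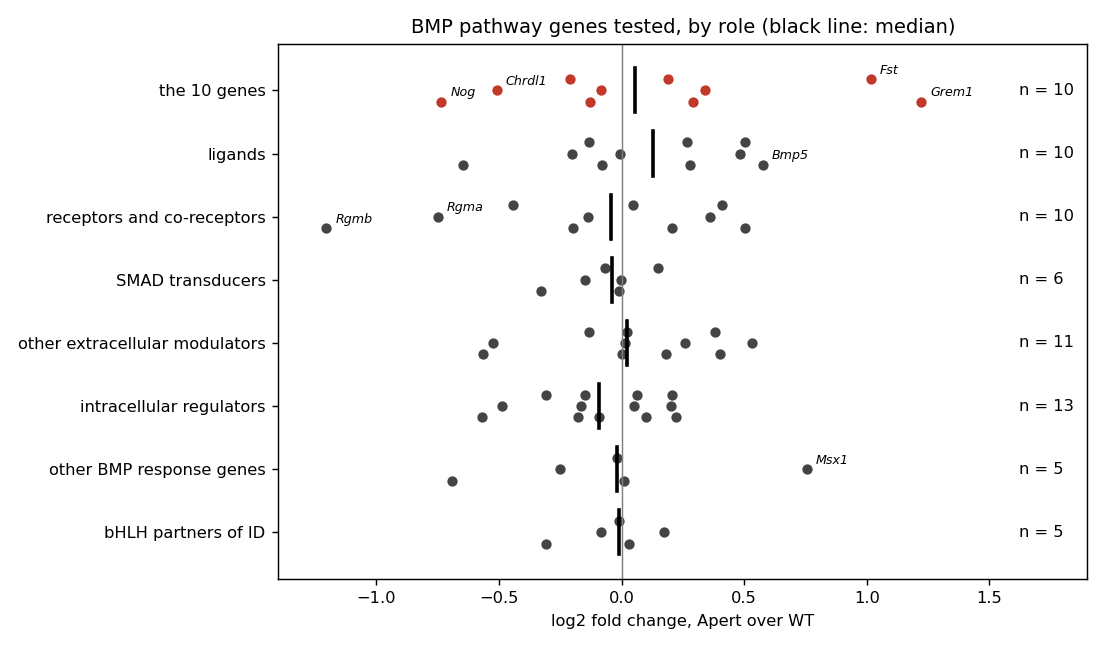
Log2 fold changes, Apert over WT, of the 10 genes (red) and of the tested pathway genes by role (grey), with the median of each row as a black line and the number of genes at the right. Medians lie between -0.091 and 0.13, and the lowest point is Rgmb at -1.20.

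For the gene of each role with the highest mean CPM, which is not scaled by length, the genes with the most similar log2 CPM over the 6 libraries were looked up among 11623 genes. Ogfod2 and Nudt17 were among the genes most like Chrdl1 (Pearson r 0.987 for both). Smad7 was most like Akr7a5, Klf16 and Zfp119a (0.984, 0.981 and 0.974), and Id3 most like Dact1, Stk4 and Ctnnb1 (0.997, 0.991 and 0.990). These are among the highest of 11623 coefficients over 6 libraries that share depth and scaling, so they describe the pattern alone. Akr7a5, Klf16 and Ogfod2 had means of 1.49, 1.14 and 1.55 CPM over the 6 libraries, close to the lower limit of 1 CPM for this search. Dact1, a Wnt pathway regulator gene, was at 201, 126 and 106 CPM in Apert replicates 1 to 3 and at 180, 137 and 148 CPM in WT replicates 1 to 3. It thus had the same highest library in each genotype as Id3, and its log2 fold change was -0.10 (edgeR adjusted p = 0.891).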

How the data were processed

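The authors deposited whole-number fragment counts per Ensembl gene, made with featureCounts 1.4.4 over exons without regard to strand, per the file headers. Genome build mm10, STAR 2.5.2b and cutadapt are named in the submitters' processing notes, and coordinates are those of the files. No member shares an exon with another gene in these models. Symbols were matched by identifier. Counts were tested with edgeR 4.0.16 in R 4.3.3 (filterByExpr, TMM, quasi-likelihood F test, Benjamini-Hochberg at 0.05), a procedure tested on simulated data. The standard error is the size of the log2 fold change divided by the square root of F, and intervals are 95%. Library depths give the precision, and counting limits cover counting error only. Alternatives used DESeq2 1.42.0, limma 3.58.1 and an mgcv 1.9.3 curve on GC content of the longest GENCODE M21 transcript. The members and lists were chosen with earlier results of these data known. Named pathway genes are the 3 with the smallest p in each list, and the modulators named for their level, Fstl1, Twsg1, Chrd and Sost, were chosen after their values were seen. Likeness was computed for genes with mean CPM of at least 1, passing over predicted genes. 1 gene that this rule took is not reported here. Deviations of same-numbered libraries had r of 0.19, 0.020 and 0.086, and those of differently numbered libraries ran from -0.145 to 0.070. These values do not settle whether the numbers mark pairs. The labels name no shared litter or day, so the main fit has no block, and a fit with the number as a block is given below.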

Additional observations from a re-analysis of the deposited data

How the results depend on the processing

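None of the 10 genes was called in any of 15 alternatives (DESeq2 gave an adjusted p for 4 of them, and with a mean CPM of at least 5 only 6 were tested, not Grem1, Fst, Smad6 and Id1). Nog, Chrdl1, Grem1, Bambi and Fst kept their sign in all those that gave a value. After correction for GC content 3 signs turned, to log2 fold changes of 0.22 for Smad6, 0.036 for Smad7 and 0.13 for Id3, genes whose transcripts are 60.8%, 56.9% and 55.6% GC beside a median of 48.9%; the cause was not tested. When 1 library at a time was left out, the log2 fold change ran from -0.39 to 0.18 for Smad6, -0.42 to 0.071 for Smad7, -0.021 to 0.66 for Id1, -0.22 to 0.36 for Id2 and -0.56 to 0.14 for Id3. The number of pathway genes called was 0 to 1 in those fits. With library totals alone the median of all genes moved to -0.14. With the replicate number as a block, 0 of the 10 genes and 0 pathway genes were called, Nog was at -0.86 and Chrdl1 at -0.51, and the block changed no call; over all genes it called 172 in place of 60. Across settings the number of all genes called ran from 0, without WT replicate 3, to 247, with no expression filter. Grem1, Fst, Smad6 and Id1 had 1 to 60 counts per library, and their spread between libraries was above what counting alone gives, as for Id1, with a coefficient of variation of 44.9% in Apert and 36.6% in WT cartilage against about 16.9% and 16.7%.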
